A study of Homo sapiens with 6 samples.

Results

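Metallothioneins and genes of the zinc response were measured by RNA sequencing in U937 cells, a human myeloid line that is usually described as histiocytic lymphoma with monocytic features and that the labels class as acute promyelocytic leukaemia. The group of 8 genes was chosen by name out of 58735 listed genes and holds 6 metallothionein genes (MT2A, MT1X, MT1E, MT1F, MT1G and MT1M), the transcription factor gene MTF1 and the zinc exporter gene SLC30A1. MT2A and MT1X were picked because they fell in this comparison, so their change is given as a description and not as a test. Of the 6 libraries, 3 were labelled oeBCL6B, from cells made with lentivirus to overexpress BCL6B, a zinc finger relative of the repressor BCL6, and 3 were labelled control, with the genotype NC. All 6 share the line and 1 batch label. The labels do not say whether the control cells carry an empty vector, whether cells were cloned or whether the replicates were grown apart. A p-value here therefore reflects library-to-library spread alone, and that spread could be technical.

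Metallothioneins are small, cysteine-rich proteins that bind zinc, copper and cadmium and buffer free metal in the cell. MTF1 is a zinc finger protein that binds DNA when free zinc rises, and its best known targets are the MT1 and MT2 genes and SLC30A1, whose product ZnT1 exports zinc across the plasma membrane. The sites it binds are called metal response elements. Metallothionein genes also respond to glucocorticoids and oxidative stress.

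Depth was 16481014 to 18870186 reads in listed genes per library. BCL6B had 1215, 1229 and 1712 reads in the oeBCL6B libraries and no read in any control. Myeloid genes were present, led by MPO at 1668 ± 93.3 FPKM in oeBCL6B cells and 2025 ± 83.2 FPKM in controls (SD, n = 3 each; FPKM is the number of fragments scaled to gene length and to library size), while CD14 and CD68 averaged at most 0.101 FPKM in either group. Of 10 tested myeloid markers 0 rose and 3 fell (MPO, LYZ and CD33), beside 8.18% and 10.1% of all tested genes (limma). At an unadjusted limma p under 0.05, 3 were higher and 3 lower, and with voom 2 were higher and 3 lower. Markers of other lineages were mostly near 0, with PAX5, HBA1 and HBB without a read. The summed level of 8 T and NK cell markers was 74.4 to 77.0 FPKM in oeBCL6B libraries and 63.3 to 66.5 FPKM in controls, nearly all of it NKG7, which rose. The summed level of 7 erythroid and megakaryocyte markers was 1.35 to 1.82 FPKM in oeBCL6B libraries and 0.610 to 0.932 FPKM in controls, with ITGA2B rising. Of 3 tested B cell markers and 1 tested epithelial, stromal or endothelial marker, 0 passed, where 18.3% of all tested genes did (limma). At an unadjusted limma p under 0.05 and with voom the count was also 0. The share of reads from mitochondrial genes was 4.49% to 4.97% in oeBCL6B libraries and 4.17% to 4.44% in controls. The part of these shifts in the results below was not tested. In bulk RNA, fewer cells of a type and less RNA per cell cannot be told apart.

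MT2A, the main metallothionein of most human cells (ENSG00000125148, GRCh38 chromosome 16, 56608199 to 56609497, plus strand), had 64.6, 66.6 and 57.0 FPKM in oeBCL6B replicates 1, 2 and 3, against 134.2, 154.4 and 130.3 FPKM in control replicates 1, 2 and 3. These values rest on 1485 to 1580 reads in oeBCL6B libraries and 2936 to 3653 in controls. Every oeBCL6B library lay below every control, and replicates of a group lay close together. The mean was 62.7 ± 5.03 FPKM with oeBCL6B and 139.6 ± 12.95 FPKM in controls (SD, n = 3 each), or 44.9% of the control mean, and the log2 change of FPKM + 1 was -1.14 with an SE of 0.085. Of 14662 tested genes, 36 had a larger fall on this scale. Over all libraries 336 genes had a higher mean FPKM than MT2A.

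MT1X (ENSG00000187193, chromosome 16, 56682424 to 56684196, plus strand), a member of the MT1 group, had 5.81, 4.58 and 4.45 FPKM in oeBCL6B libraries, against 9.79, 13.8 and 11.2 FPKM in controls. The groups again did not overlap, and control replicate 2 was highest for both MT2A and MT1X. The mean was 4.95 ± 0.754 FPKM with oeBCL6B and 11.6 ± 2.03 FPKM in controls (SD, n = 3 each), or 42.7% of control, with a log2 change of -1.08 and an SE of 0.135. This rests on 145 to 194 reads in oeBCL6B libraries and 319 to 445 in controls.

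MT1F (ENSG00000198417, chromosome 16, 56657694 to 56660698, plus strand), another MT1 gene, was not chosen for its change. It had 4.05, 4.06 and 3.65 FPKM in oeBCL6B libraries, against 5.13, 5.76 and 4.91 FPKM in controls. All oeBCL6B values lay below all control values, by a smaller margin than for MT2A and MT1X. MT1F fell to 74.4% of the control mean, at 3.92 ± 0.236 FPKM with oeBCL6B and 5.26 ± 0.438 FPKM in controls (SD, n = 3 each; log2 change -0.35, SE 0.0737, limma adjusted p = 0.0216). With 137 to 144 reads in oeBCL6B libraries and 161 to 198 in controls, its call was lost in 4 of the 6 fits that leave out a library. The adjusted p was 0.0561 without oeBCL6B replicate 2, 0.0553 without oeBCL6B replicate 3, 0.0626 without control replicate 1 and 0.0559 without control replicate 2. With no filter on low values it was 0.0544.

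MT1E, MT1G and MT1M had no read in any of the 6 libraries. A count of 0, taken as at most 3 counts per library, allows up to 0.142 to 0.164 FPKM for MT1E, 0.200 to 0.231 FPKM for MT1G and 0.159 to 0.184 FPKM for MT1M, for counting error only. These 3 members did not pass the filter on low values and were not tested, so 5 of the 8 members were.

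**Figure D1:**
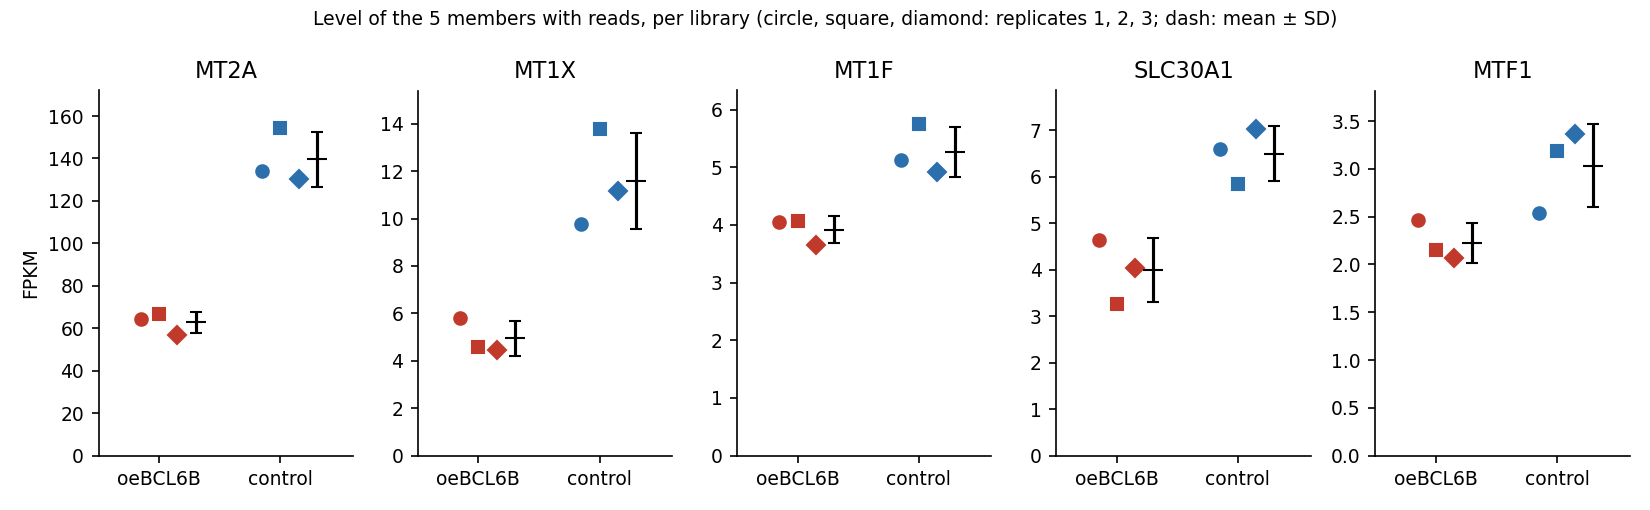
Level in FPKM (linear axes from 0, 1 panel per gene) of the 5 members with reads in each oeBCL6B library (red) and control library (blue), with the group mean ± SD (n = 3). For each gene the 3 oeBCL6B values lie below the 3 control values, with the narrowest gap for MTF1, at 2.46 FPKM in oeBCL6B replicate 1 and 2.54 FPKM in control replicate 1.

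SLC30A1 (ENSG00000170385, chromosome 1, 211571568 to 211578742, minus strand), which encodes the zinc exporter ZnT1, also fell. It had 4.65, 3.27 and 4.05 FPKM in oeBCL6B libraries, against 6.61, 5.86 and 7.02 FPKM in controls. The groups did not overlap, and replicate 2 was lowest in both. The mean was 3.99 ± 0.690 FPKM with oeBCL6B and 6.50 ± 0.590 FPKM in controls (SD, n = 3 each), or 61.4% of control (log2 change -0.59, SE 0.114, limma adjusted p = 0.0158), from 320 to 479 reads in oeBCL6B libraries and 584 to 667 in controls. Leaving out control replicate 1 or control replicate 3 ended the call (adjusted p = 0.0558 and 0.0577), as did testing every gene with no filter (0.0510).

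MTF1 (ENSG00000188786, chromosome 1, 37809567 to 37859620, minus strand), the zinc-sensing factor, did not pass. It had 2.46, 2.15 and 2.06 FPKM in oeBCL6B libraries, against 2.54, 3.18 and 3.37 FPKM in controls. The values did not overlap, though oeBCL6B replicate 1 and control replicate 1 nearly met. The mean was 2.23 ± 0.210 FPKM with oeBCL6B and 3.03 ± 0.433 FPKM in controls (SD, n = 3 each), or 73.4% of control (log2 change -0.32, SE 0.101, limma adjusted p = 0.0712). It passed without control replicate 1 (adjusted p = 0.0484) and with limma voom on the reads behind the FPKM (0.0091).

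Of the 3 tested members not chosen for their change, MT1F and SLC30A1 passed downward, which is 2 of 3 where 18.3% of all tested genes passed, 10.1% by falling and 8.18% by rising. All 5 tested members had groups that did not overlap, with every oeBCL6B library below every control, as for 22.2% of tested genes, with 17.8% separated the other way and 40.0% in either direction. MT2A and MT1X are in that count by choice. All members were chosen with earlier results of these data known, so nothing is read from either count. The median log2 change of all tested genes was -0.0182.

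On the deposited gene lengths, mean control levels ran from MT2A through MT1X, SLC30A1 and MT1F to MTF1, and no neighbours in this order overlapped. With oeBCL6B the order of means was the same, but MT1X (4.45 to 5.81 FPKM) overlapped SLC30A1 (3.27 to 4.65 FPKM), and SLC30A1 overlapped MT1F (3.65 to 4.06 FPKM). The deposited lengths of MT2A (1299 bases) and MT1X (1773 bases) equal the whole gene with its introns, and that of MT1F (1889 bases) exceeds its longest coding transcript in GENCODE 29 (690 bases). On the length of the longest coding transcript (786 bases for MT2A and 538 for MT1X), MT2A averaged 103.7 with oeBCL6B and 231 in controls, MT1X 16.3 with oeBCL6B and 38.2 in controls, and MT1F 10.7 with oeBCL6B and 14.4 in controls on the FPKM scale. Ratios between groups do not depend on the length used.

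Across the whole family the table lists 21 metallothionein genes and pseudogenes, of which 16 had no read in any library. Of 12 protein-coding metallothionein genes 3 had reads, namely MT2A, MT1X and MT1F, and the 9 without a read were MT1A, MT1B, MT1E, MT1G, MT1H, MT1HL1, MT1M, MT3 and MT4. The pseudogene MT1XP1 on chromosome 1 had 9, 5 and 3 reads in oeBCL6B libraries, against 2, 9 and 5 in controls, so the groups overlapped. The pseudogene MT1P3 had 3 reads in oeBCL6B replicate 3 and none elsewhere. All metallothionein reads together came to 107.5, 107.2 and 94.7 RPM (recovered reads scaled to the reads in listed genes) in oeBCL6B libraries, against 213.6, 244.2 and 209.1 RPM in controls. The mean was 103.1 ± 7.31 RPM with oeBCL6B and 222.3 ± 19.1 RPM in controls (SD, n = 3 each), or 46.4% of control, a value set mostly by MT2A.

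The family's make-up shifted with the unequal falls. MT2A took 82.0% to 84.3% of metallothionein reads in oeBCL6B libraries and 84.9% to 86.5% in controls. MT1F took 7.47% to 7.72% in oeBCL6B libraries and 4.60% to 4.81% in controls, with no overlap. MT1X took 7.91% to 10.1% in oeBCL6B libraries and 8.61% to 10.3% in controls, so the groups overlapped for MT1X. These shares contain MT2A and MT1X, which were chosen on this contrast, and are given without a test.

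**Figure D2:**
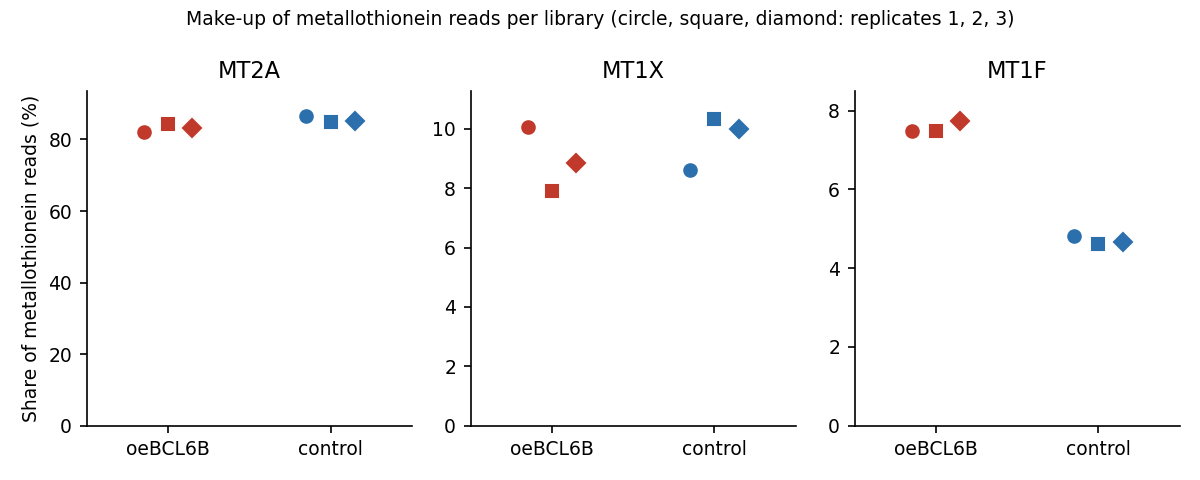
Share of all metallothionein reads (percent, linear axes from 0) taken by MT2A, MT1X and MT1F in each oeBCL6B library (red) and control library (blue). MT1F holds 7.47% to 7.72% in oeBCL6B libraries, above the 4.60% to 4.81% in controls.

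Metallothionein genes resemble each other, so reads could move between them. The longest coding transcript of MT2A matched a transcript of its closest relative by score, the pseudogene MT1L, at 86.4% over 338 bases. MT1F matched MT1E at 77.2% over 690 bases. Among genes with reads, MT2A matched MT1F at 84.3% over 344 bases and MT1X at 83.4% over 332 bases, and MT1F matched MT1X at 79.6% over 437 bases. MT1L and MT1E had no read. MT1X shares 325 bases at 99.7% identity with AC026461.1, a transcript annotated over it on the same strand that had no read in any library. How reads that match several genes were treated is not given in the sources used here. MTF1 carries a stretch shared with transcripts of unrelated genes, for example TCF25 at 89.9% over 297 bases.

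Of the 21 family members 16, and all 3 chromosome 16 genes with reads, lie in a cluster of 119 kb on chromosome 16 (56565049 to 56684196). Of the 5 nearest listed genes on each side, 5 passed the filter and 4 are described here. The closest on the MT3 and MT4 side was BBS2, which acts in cilia, at 2.17 FPKM with oeBCL6B and 1.82 FPKM in controls (log2 change 0.17, limma adjusted p = 0.157). On the MT1X side the only tested gene was NUP93, a nuclear pore gene, which fell to 83.3% of control (7.15 FPKM with oeBCL6B and 8.58 FPKM in controls, log2 change -0.23, limma adjusted p = 0.0184). NUP93 lost its call without oeBCL6B replicate 2 (adjusted p = 0.0682) and without control replicate 1, 2 or 3 (0.0774, 0.0569 and 0.0535). OGFOD1, a hydroxylase gene, fell to 79.0% of control (10.96 FPKM with oeBCL6B and 13.9 FPKM in controls, log2 change -0.31, limma adjusted p = 0.0127), a call lost without control replicate 3 (0.0549). NUDT21, which encodes a subunit of the cleavage factor for RNA 3′ ends, stood at 109.7% of control and did not pass (36.7 FPKM with oeBCL6B and 33.5 FPKM in controls, limma adjusted p = 0.207).

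**Figure D3:**
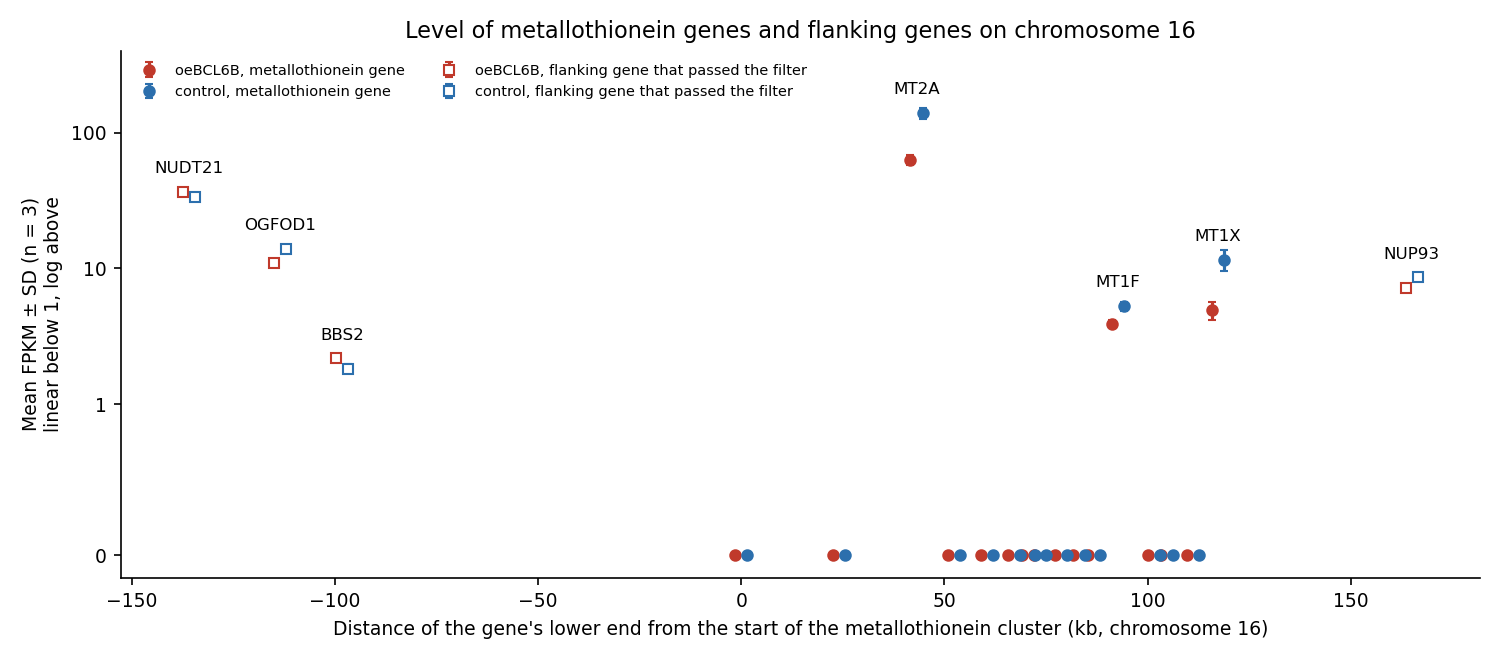
Mean level ± SD (FPKM, n = 3, axis linear below 1 and logarithmic above) in oeBCL6B (red) and control (blue) libraries against distance along chromosome 16, with points of the groups shifted sideways so that both show. Filled circles are metallothionein genes, with 3 above 0 and 13 at 0 in both groups, and open squares are the 4 flanking genes described in the text.

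Promoters were compared because the metallothionein genes and SLC30A1 share the metal response element. The set of RefSeq promoters used here held 4 of the 8 members (MT2A, MT1X, SLC30A1 and MTF1). Of the 21 family genes it held 5 (MT2A, MT1X, MT1B, MT1H and MT4). Shown are the 250 bases upstream of the RefSeq start (build GRCh38.p14, 5′ to 3′ in the direction of transcription) of MT2A, MT1X and SLC30A1 and, beside them, of 2 family genes without a read. The window of MTF1, whose level was also lower though it did not pass, is not printed. Capitals mark the core of the metal response element, searched as TGCACNC or TGCGCNC on both strands.
MT2A, chr16:56608334-56608583, plus strand: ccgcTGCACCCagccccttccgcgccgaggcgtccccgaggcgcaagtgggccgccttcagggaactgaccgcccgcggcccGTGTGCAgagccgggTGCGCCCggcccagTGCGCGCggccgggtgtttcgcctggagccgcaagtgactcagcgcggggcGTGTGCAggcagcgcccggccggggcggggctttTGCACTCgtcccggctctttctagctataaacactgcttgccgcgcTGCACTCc
MT1X, chr16:56682220-56682469, plus strand: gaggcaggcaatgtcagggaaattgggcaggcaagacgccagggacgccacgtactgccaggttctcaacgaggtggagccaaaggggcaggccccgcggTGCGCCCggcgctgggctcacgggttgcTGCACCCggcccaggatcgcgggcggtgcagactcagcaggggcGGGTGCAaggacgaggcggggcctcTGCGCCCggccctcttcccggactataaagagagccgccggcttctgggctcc
SLC30A1, chr1:211579162-211579411, minus strand: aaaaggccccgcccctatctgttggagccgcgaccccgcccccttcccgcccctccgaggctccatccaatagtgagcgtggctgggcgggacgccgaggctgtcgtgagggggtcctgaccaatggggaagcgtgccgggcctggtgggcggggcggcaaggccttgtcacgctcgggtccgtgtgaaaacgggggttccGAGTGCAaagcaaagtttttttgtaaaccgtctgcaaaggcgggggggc
MT1H, chr16:56669564-56669813, plus strand: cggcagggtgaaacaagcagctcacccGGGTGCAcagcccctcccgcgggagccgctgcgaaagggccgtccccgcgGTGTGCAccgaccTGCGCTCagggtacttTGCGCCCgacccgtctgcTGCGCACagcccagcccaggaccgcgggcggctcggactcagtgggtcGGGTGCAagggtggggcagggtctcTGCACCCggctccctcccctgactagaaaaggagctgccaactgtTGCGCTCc
MT1B, chr16:56651636-56651885, plus strand: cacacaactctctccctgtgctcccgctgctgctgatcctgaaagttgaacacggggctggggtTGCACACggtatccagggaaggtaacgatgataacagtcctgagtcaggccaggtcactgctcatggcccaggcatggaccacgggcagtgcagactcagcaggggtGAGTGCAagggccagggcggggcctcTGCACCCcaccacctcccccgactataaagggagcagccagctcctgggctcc

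MT2A held 7 cores, the nearest starting 8 bases upstream of the start and the farthest 246. MT1X held 4, from 53 to 150 bases upstream, SLC30A1 held 1, at 49 bases, and MTF1 held 0. Among 35116 RefSeq promoters of the same length, 24.8% held at least 1 core, 0.370% at least 4 and 0.0313% at least 7. MT1H held 8 cores, MT1B 3 and MT4 3, and none of these genes had a read, so genes with more cores were not always those with higher levels. A core near 53 bases upstream occurred in MT2A (54), MT1X (53), MT1H (53) and MT1B (53). CpG pairs numbered 32 in the MT2A window, 22 each in those of MT1X, SLC30A1 and MT1H and 7 in that of MT1B, with a median of 11 over all promoters. The RefSeq start lies 385 bases inside the deposited MT2A gene, 46 bases inside that of MT1X and 419 bases upstream of that of SLC30A1.

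A loose form of the element that BCL6 is known to bind, TTCCNNGAA on either strand, occurred once in the MT2A window, starting 194 bases upstream, and once in that of MT4. It was not in the windows of MT1X, SLC30A1, MTF1, MT1H or MT1B, and 3.86% of all promoters held it. Such matches describe letters in a window, and binding was not measured here.

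**Figure D4:**
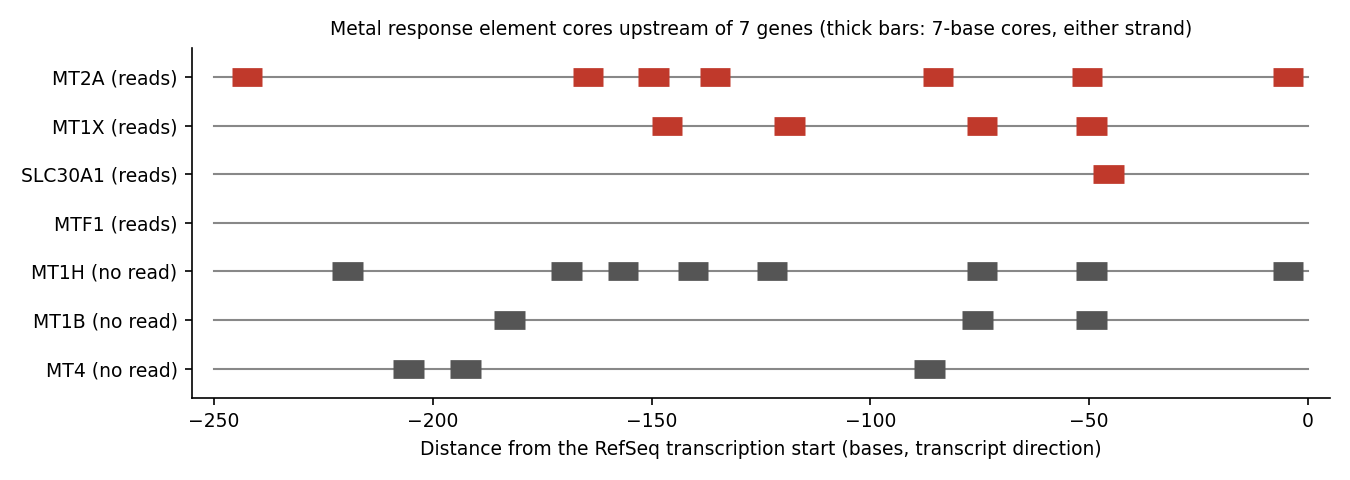
Positions of metal response element cores (thick bars, 7 bases each, either strand) in the 250 bases upstream of the RefSeq start of 4 genes with reads (red) and 3 without (grey). MT2A holds 7 and MT1H, which had no read, holds 8.

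Other zinc transporters were compared from lists of named families. For the counts of each list below, 2687 of all 14662 tested genes passed in the main fit and 3567 with voom. None of the 4 tested zinc exporter genes (of 10 listed beside SLC30A1) passed in either direction, where 18.3% of all tested genes did (limma). At an unadjusted limma p under 0.05 the count was 0, as with voom, and the median log2 change was -0.00547. The highest was SLC30A9, at 15.1 ± 1.40 FPKM with oeBCL6B and 14.8 ± 0.725 FPKM in controls (SD, n = 3 each; limma adjusted p = 0.849). SLC30A5, SLC30A6 and SLC30A7, which load zinc into vesicles and the secretory pathway, stood at 97.4%, 94.2% and 104.6% of control and were named after their values were seen. At a share of 18.3%, 0 of 4 does not set these exporters apart from tested genes at large. SLC30A1 passed in the main fit but not in the alternatives named above. The difference between SLC30A1 and the other exporters was not tested.

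Of 11 tested zinc importer genes (14 listed) 1 fell and 0 rose, beside 10.1% and 8.18% of all tested genes (limma). At an unadjusted limma p under 0.05, 1 was lower and 1 higher, and with voom 1 was lower and 0 higher. The median log2 change was 0.00404. SLC39A11, which encodes the importer ZIP11, fell to 77.8% of control, at 6.99 ± 0.151 FPKM with oeBCL6B and 8.98 ± 0.372 FPKM in controls (SD, n = 3 each; log2 change -0.32, SE 0.0518, limma adjusted p = 0.00934), and kept its call in every alternative fit. SLC39A7, which releases zinc from the endoplasmic reticulum, was the highest, at 29.6 ± 2.50 FPKM with oeBCL6B and 28.8 ± 3.07 FPKM in controls (SD, n = 3 each; limma adjusted p = 0.808). SLC39A10, whose RNA is known to fall when MTF1 is active, stood at 5.05 FPKM with oeBCL6B and 5.50 FPKM in controls (limma adjusted p = 0.499) and was named after its values were seen.

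Of 10 tested copper handling genes (13 listed) 2 fell and 0 rose, beside 10.1% and 8.18% of all tested genes (limma). At an unadjusted limma p under 0.05, 4 were lower and 0 higher, and with voom 3 were lower and 0 higher. The median log2 change was -0.0979. CUTC, of the CutC family of copper-binding proteins, fell to 76.8% of control, at 38.4 ± 0.569 FPKM with oeBCL6B and 50.03 ± 1.73 FPKM in controls (SD, n = 3 each; log2 change -0.37, limma adjusted p = 0.00355). SCO1, which delivers copper to cytochrome c oxidase, fell to 79.7% (log2 change -0.27, limma adjusted p = 0.0254), a call that held in 1 of the 6 fits without a library, that without oeBCL6B replicate 1 (adjusted p = 0.0487), and reached 0.093 without control replicate 1. SOD1, the copper and zinc superoxide dismutase, was the highest, at 96.9 FPKM with oeBCL6B and 111.6 FPKM in controls (limma adjusted p = 0.0988). It passed, lower, with voom, TPM rescaling and a spline on length and GC content.

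Of 9 tested genes of the metal and oxidative stress response (13 listed) 1 rose and 1 fell, beside 8.18% and 10.1% of all tested genes (limma). At an unadjusted limma p under 0.05, 2 were higher and 1 lower, and with voom 1 was higher and 1 lower. The median log2 change was 0.0727. HMOX1, which encodes haem oxygenase 1, had 1.10, 1.21 and 1.35 FPKM in oeBCL6B libraries, against 0.0679, 0.297 and 0.335 FPKM in controls. It rose 5.23-fold from a low level (50 to 65 reads in oeBCL6B libraries and 3 to 14 in controls). The log2 change was 0.85 at a pseudocount of 1 (limma adjusted p = 0.00672), 2.10 at a pseudocount of 0.1 (0.0184) and 2.61 with voom (3.5e-04). All controls lay below the filter of 0.5 FPKM, so HMOX1 entered the test only through its oeBCL6B libraries. Its call and p-values are therefore given as a description and not as a test. SLC7A11, the cystine transporter gene, fell to 65.2% of control, at 4.39 ± 0.349 FPKM with oeBCL6B and 6.73 ± 0.460 FPKM in controls (SD, n = 3 each; limma adjusted p = 0.00625). TXNRD1, thioredoxin reductase, stood at 24.2 FPKM with oeBCL6B and 23.0 FPKM in controls (limma adjusted p = 0.341).

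None of 11 tested regulators known to act on metallothionein genes (12 listed) passed in either direction, where 18.3% of all tested genes did (limma). At an unadjusted limma p under 0.05, 2 were higher and 0 lower, and with voom 1 was higher (CEBPA). The median log2 change was 0.0401. The highest was SPI1, the myeloid factor PU.1, at 96.9 ± 7.81 FPKM with oeBCL6B and 85.8 ± 3.56 FPKM in controls (SD, n = 3 each; limma adjusted p = 0.123). Of 8 tested glucocorticoid-induced genes (10 listed) 2 rose and 0 fell, beside 8.18% and 10.1% of all tested genes (limma). At an unadjusted limma p under 0.05, 2 were higher and 1 lower, with the same counts for voom. The median log2 change was 0.117. ERRFI1, a feedback inhibitor of the EGF receptor, rose 1.53-fold to 9.11 ± 0.803 FPKM with oeBCL6B, against 5.94 ± 0.221 FPKM in controls (SD, n = 3 each; limma adjusted p = 0.00488). MERTK, a receptor kinase, rose 1.53-fold (limma adjusted p = 0.0353), a call that held in 1 of the 6 fits without a library, that without control replicate 2 (adjusted p = 0.0416), and reached 0.102 without control replicate 3. TSC22D3, a classic glucocorticoid target, stood at 86.2% of control with a limma adjusted p of 0.0647. It passed, lower, with voom, TPM rescaling, a spline on length and GC content, and the replicate number as a block.

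**Figure D5:**
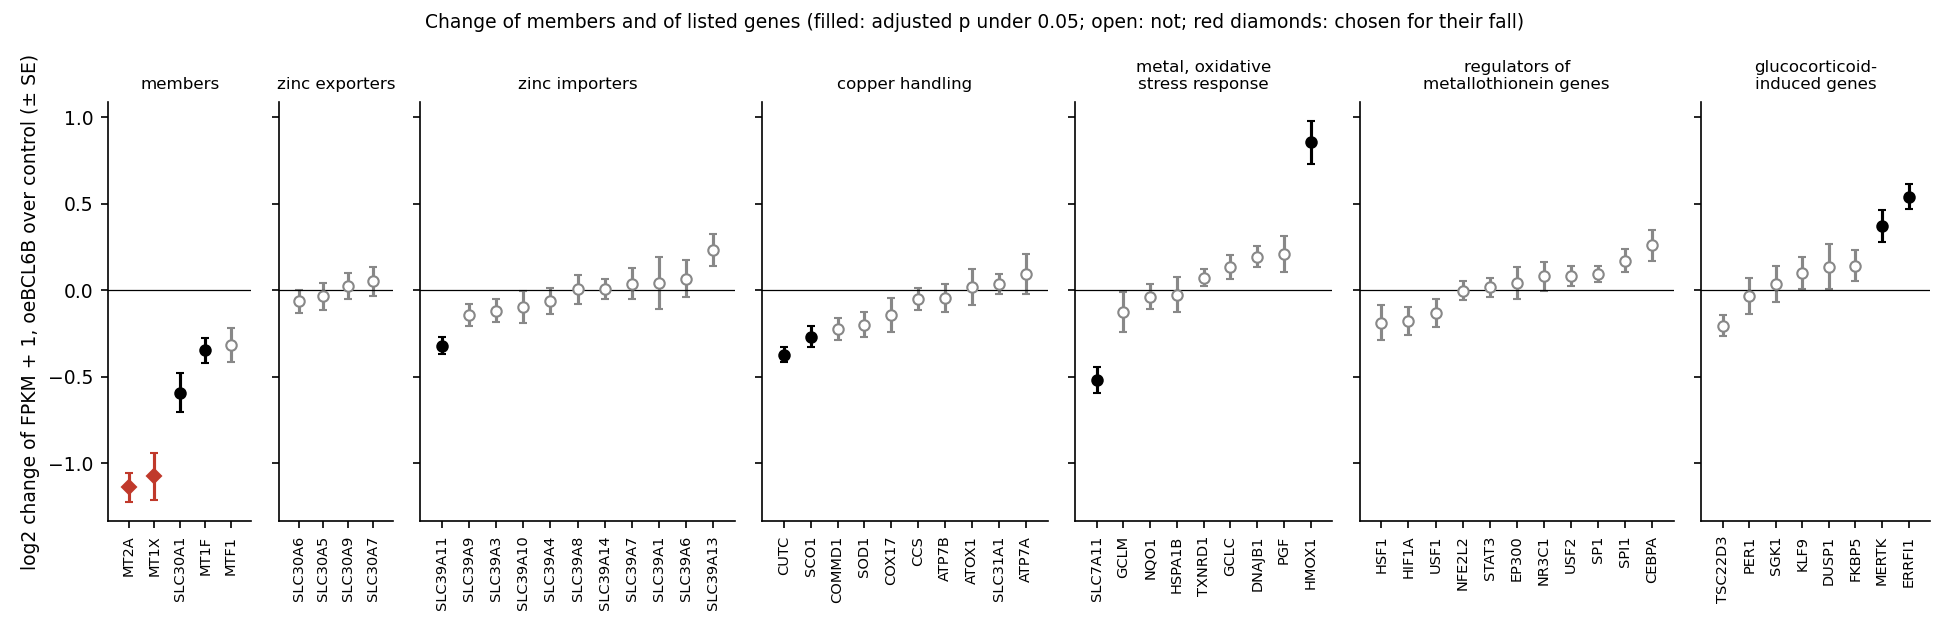
Log2 change of FPKM + 1, oeBCL6B over control (± SE from limma, 6 libraries), for the tested members and the tested genes of 6 lists, with filled symbols for an adjusted p under 0.05 and red diamonds for MT2A and MT1X, which were chosen for their fall. MT2A, MT1X and SLC30A1 lie at -1.14, -1.08 and -0.59, while the 4 zinc exporter genes lie between -0.0646 and 0.0517.

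The genes of other families whose values over the 6 libraries lay closest to those of MT2A were found by the root-mean-square distance between log2(FPKM + 1) values centred on the control mean. They were AL355922.1, annotated as a long intergenic RNA (distance 0.0872), CYTL1, which encodes a secreted cytokine-like protein (0.0881), and AC023825.2, annotated as antisense (0.0893). For MT1X they were AC023825.2 (0.116), ANKRD22 (0.117) and the chaperone gene HSP90AA1 (0.132), and MT2A and MT1X were 0.132 apart. CYTL1 had 53.2, 52.2 and 51.6 FPKM in oeBCL6B libraries, against 113.4, 117.04 and 114.3 FPKM in controls. AL355922.1 stood at 39.3% of control, from 30 to 36 reads in oeBCL6B libraries and 76 to 84 in controls. AC023825.2 stood at 34.8% of control, from 15 to 19 reads in oeBCL6B libraries and 43 to 49 in controls. The log2(FPKM + 1) scale understates the change of so low a gene. SLC30A1 ranked 245 by nearness to MT2A and 187 by nearness to MT1X, both over genes outside the metallothionein family.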

How the data were processed

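Gene expression was measured in 3 oeBCL6B and 3 control libraries. FPKM values and gene lengths were deposited by the authors, per the file headers. Per the submitters' processing notes, cutadapt 1.9 and build GRCh38 were used. Which aligner and counter were used, and how strand and multiply matching reads were handled, was not given in the sources used here. Multiplying FPKM by length gave whole reads, on 1 scale for each library, for 100% of 139702 values above 0 (tolerance 0.01). A count of 0 was taken as at most 3 counts, for counting error only.

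The 14662 genes that reached 0.5 FPKM in at least 3 of 6 libraries entered a limma fit (version 3.58.1, R 4.3.3) of log2(FPKM + 1). The prior variance followed mean expression, and two-sided p-values were adjusted by the Benjamini-Hochberg method across all 14662 genes (threshold 0.05). This scale understates changes of low genes. The procedure was tested on simulated reads. Members and lists were chosen with earlier results of these data known. Named genes are the members, the metallothionein family, flanking genes, from each list up to 4 genes that passed and the highest that did not, and the 3 genes nearest in pattern. Copies were sought among GENCODE 29 transcripts with BLAST+ 2.17.0. Promoters are from RefSeq, GRCh38.p14. Alternatives were the pseudocount, filter, scaling, a spline on length and GC content, voom, the replicate block, summing the family, and leaving out each library. After the data were seen, a fit without genes shorter than 200 bases and levels on the longest coding transcript were added. A flanking gene and a lineage marker are not reported here.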

Additional observations from a re-analysis of the deposited data

How the results depend on the processing

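MT2A and MT1X kept their direction in all alternatives, with log2 changes of -1.19 to -1.07 for MT2A and -1.22 to -0.95 for MT1X. With all metallothionein genes summed as 1 feature the change was -1.09. MT1F, SLC30A1 and MTF1 also kept their direction throughout, at -0.43 to -0.29, -0.71 to -0.49 and -0.43 to -0.26. Of these 3 genes 2 passed as reported, 3 with voom, 1 to 2 without 1 library and 0 without the filter on low values, where more genes are tested (limma, 3 of 3 at an unadjusted p under 0.05). The number of genes called among all tested was 2687, 1588 without the filter and 1222 to 2272 without 1 library. It was 1276, 1738 and 1222 without control replicates 1, 2 and 3 and 1333 without oeBCL6B replicate 2. It was 3567 with voom, 3699 after the spline on length and GC content and 2962 among genes of at least 200 bases. Genes called over the 6 lists numbered 7, among them HMOX1, whose call is not a test. They numbered 12 after the spline and 5 to 7 without 1 library. The cause of these moves was not tested.

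Directions of 3 genes that did not pass turned: SLC30A9 to -0.00587 after TPM rescaling and -0.0369 to 0.089 without 1 library, SLC39A7 to -0.0221 to 0.12 without 1 library, and MT1XP1 to -0.273 to 0.33 without 1 library. Correlations of same-numbered libraries' deviations were 0.0511, 0.110 and -0.00189, and those of differently numbered libraries ran from -0.0909 to 0.0386. This check has no reference for paired libraries, so it cannot tell whether same-numbered libraries were paired. With the replicate number as a block 2328 genes were called, among them 2 of MT1F, SLC30A1 and MTF1 and 6 genes of the lists. SCO1 and MERTK were lost (limma adjusted p of 0.0502 and 0.0643), and TSC22D3 was gained (0.0456). For the 3 members without a read, depth allows levels of up to 0.231 FPKM.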
